A study of Arabidopsis thaliana with 6 samples.

Results

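SP1L2, TUA6 and TUB6 are 3 Arabidopsis thaliana genes whose products build or bind microtubules. Each was read by 1 probe set annotated to that gene alone, which makes them 3 of 13286 genes with a probe set of their own, and all 3 passed the filter on dim probe sets. They were chosen with their differences between the genotypes known, and those differences are therefore given as a description; where the call of the fit across all probe sets is mentioned for them, it is not evidence. Whole seedlings of the Col-0 background were compared at 9 days of age, grown at 22 degrees Celsius under unbroken light on agar medium that held 2% sucrose. Wild type was set against the myb3r1 myb3r4 double mutant, and the labels do not name the mutant alleles. Each of 3 experimental sets held 1 array of each genotype, 6 arrays in all. Nothing in the labels says that the sets were separate cultures, so the spread between them may be technical.

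Microtubules are polymers of alpha- and beta-tubulin dimers. In plant cells they form the cortical array that guides cellulose deposition and the direction of cell expansion, and during division they form the preprophase band, the spindle and the phragmoplast. SPIRAL1 is the founder of a small plant protein family that binds cortical microtubules, and Arabidopsis plants that lack SPIRAL1 grow with a helical twist. MYB3R1 and MYB3R4 are transcription factors that bind the MSA element, a promoter sequence of genes that plants express in mitosis and cytokinesis.

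Each level below is the log2 of a signal over its array's median signal, so that 0 marks a typical probe set. Each difference subtracts the wild-type from the mutant level within a set, and the fit takes the set as a block. MYB3R1 and MYB3R4 themselves were not analysed here. Of 13648 probe sets tested in limma, an adjusted p under 0.05 was reached by 72, of which 19 (0.139% of those tested) were lower and 53 (0.388%) higher in the mutant. Both shoot and root markers of a whole seedling were present. The 2 shoot markers with a named probe set, RCA and PSAE-1, lay at levels of 6.28 to 6.99. Of the 3 such root markers PYK10 and NAI2 were bright on every array, while AT5G17820 was dimmer, at 0.55 to 2.52. PYK10 and NAI2 differed by 0.33 and 0.41 and AT5G17820 by -0.14, with set differences of -0.88, 0.76 and -0.30. None of these 5 markers passed the test, and none was at 0. The summed signal of the shoot markers was 159 to 180 times the array median in wild type. In the mutant it was 188 to 228 times, without overlap. Of the 2 shoot markers RCA differed by 0.36 without overlap, and PSAE-1 by 0.20 with overlap. The mutant arrays lay wholly above the wild-type arrays for 8.15% of tested probe sets. The summed signal of the root markers was 59.6 to 99.4 times the array median in wild type and 67.1 to 111 times in the mutant. The part of tissue makeup in the differences below was not tested. In whole seedlings, fewer cells that express a gene and less RNA per cell cannot be told apart.

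SP1L2 (AT1G69230, probe set 260353_at), a relative of SPIRAL1, was lower in the mutant in every set, while TUA6, an alpha-tubulin gene, and TUB6, a beta-tubulin gene, had levels that overlapped between the genotypes. In wild type SP1L2 had levels of -0.21, 0.78 and 0.81, from set 1 to set 3. In the mutant arrays it had, in the same order, levels of -1.86, -0.35 and -0.51. All 3 mutant levels lay below all 3 wild-type levels, but the gap was narrow: the highest mutant level, in set 2, was 0.14 below the lowest wild-type level, in set 1. The share of all tested probe sets whose mutant arrays lay wholly below the wild-type arrays was 4.57%, and 15.6% were lower in the mutant in all 3 sets.

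Within a set the 2 genotypes were farther apart than that gap. SP1L2 was 3.14-fold lower in the mutant in set 1, 2.19-fold lower in set 2 and 2.51-fold lower in set 3. The fitted difference was -1.37 on the log2 scale (SE 0.18), or 2.59-fold, between a wild-type mean of 0.46 ± 0.58 and a mutant mean of -0.91 ± 0.83 (SD, n = 3 each). The SD of the 3 set differences was 0.26, smaller than the SD over sets within either genotype. Of the tested probe sets 52.9% had a smaller SD of set differences. Ranked by difference, SP1L2 stood 11th from the lowest among the tested probe sets. A limma adjusted p under 0.05 was reached by SP1L2 and by neither tubulin gene, 1 of 3 members, where 0.528% of all tested probe sets reached it; SP1L2 was chosen on this contrast, so nothing is read from that count. Without the experimental set as a block SP1L2 did not pass, nor did it without the filter on dim probe sets.

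SP1L2 was dim. Its signal was 0.864, 1.71 and 1.76 times the array median in wild type and 0.275, 0.783 and 0.700 times in the mutant. Of the tested probe sets 11.6% were dimmer. The array of set 1 gave the lowest SP1L2 level in both genotypes, as it did for 24.9% of tested probe sets, and the difference was also widest there. With an offset of 50 signal units before the log, which draws dim signals together, the difference was -1.02.

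**Figure D1:**
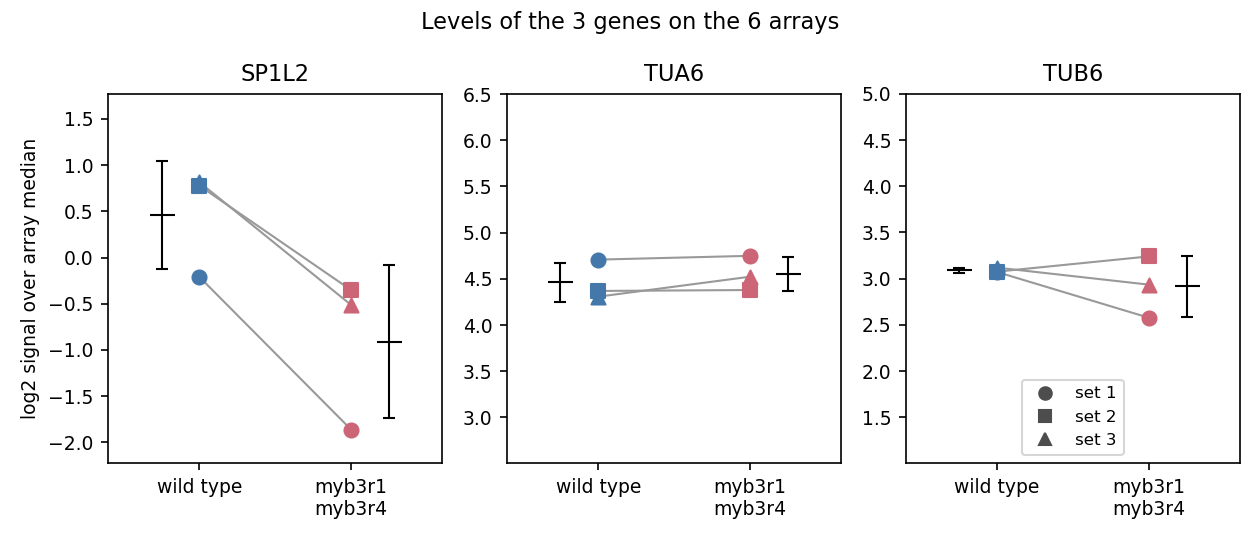
Levels of SP1L2, TUA6 and TUB6 as log2 signal over the array median (y axis, each panel spanning the same number of log2 units) in wild type (blue) and myb3r1 myb3r4 (red). Marker shapes stand for sets 1 to 3, lines join the arrays of a set, and bars give the mean ± SD of 3 arrays; SP1L2 falls in all 3 sets, while the arrays of the 2 genotypes overlap for TUA6 and TUB6.

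TUA6 (AT4G14960, probe set 245270_at) encodes an alpha-tubulin and was bright on all 6 arrays. From set 1 to set 3 its levels were 4.71, 4.37 and 4.31 in wild type and 4.75, 4.38 and 4.52 in the mutant. The signal was 19.8 to 26.1 times the array median in wild type and 20.8 to 26.9 times in the mutant, and 95.6% of tested probe sets were dimmer. The genotypes overlapped, and the set 1 arrays of both genotypes stood above the other 4 arrays. The differences were 0.042, 0.010 and 0.22 in sets 1 to 3. The fitted difference of 0.089 (SE 0.14) was smaller than its error and lay on the other side of 0 under quantile normalization (-0.16) and when the division by the array median was undone (-0.035). The direction of TUA6 was therefore not settled by these arrays. The set differences of TUA6 were close to each other, with an SD of 0.11, and 13.6% of tested probe sets had a smaller one. TUA2, TUA4 and TUA6 encode near-identical proteins; TUA2 and TUA4 were not analysed here, and how far the TUA6 probe set reads their transcripts was not tested.

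TUB6 (AT5G12250, probe set 250317_at) encodes a beta-tubulin. Its levels in wild type were nearly the same in all sets, at 3.07, 3.08 and 3.12. In the mutant arrays it had levels of 2.58, 3.24 and 2.94. The mutant arrays lay on both sides of the wild-type arrays, below them in sets 1 and 3 and above them in set 2. Their SD was 0.33, where that of wild type was 0.027 (n = 3 each). The differences in sets 1 to 3 were -0.49, 0.17 and -0.18, and the fitted difference was -0.17 (SE 0.17), about the size of its error. Set 1 carried most of it: without set 1 the TUB6 difference was -0.0093, and without set 2 it was -0.34. Beta-tubulin genes are similar in sequence to each other as well, and how far the probe set reads other members was not tested.

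A sign of RNA quality differed between the arrays in the same sets. The signal of the 3' end minus that of the 5' end of control genes, a mean over 6 pairs of control probe sets on the log2 scale, was 1.07, 3.04 and 3.22 for wild type from set 1 to set 3. For the mutant it was 1.5, 1.92 and 2.44. The mutant exceeded wild type by 0.44 in set 1 and differed from it by -1.12 and -0.78 in the other two, so set 1 stood apart from sets 2 and 3. TUB6 had its lowest difference in set 1 and its highest in set 2, and SP1L2 likewise. TUA6 did not, at 0.042, 0.010 and 0.22 in sets 1 to 3. How common the order of TUB6 and SP1L2 is among all tested probe sets was not counted. The part of RNA quality in the differences of these genes was not tested. With the control signal as a covariate, an alternative added after seeing the data, the SP1L2 difference was -1.53 (SE 0.21), that of TUA6 0.078 (SE 0.14) and that of TUB6 -0.36 (SE 0.15). Division of each array by its median also bears on small differences. Over all tested probe sets the differences had a median of 0.058, which moved by -0.124 when that division was undone. Relative to this median the differences were -1.43 for SP1L2, 0.031 for TUA6 and -0.23 for TUB6.

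**Figure D2:**
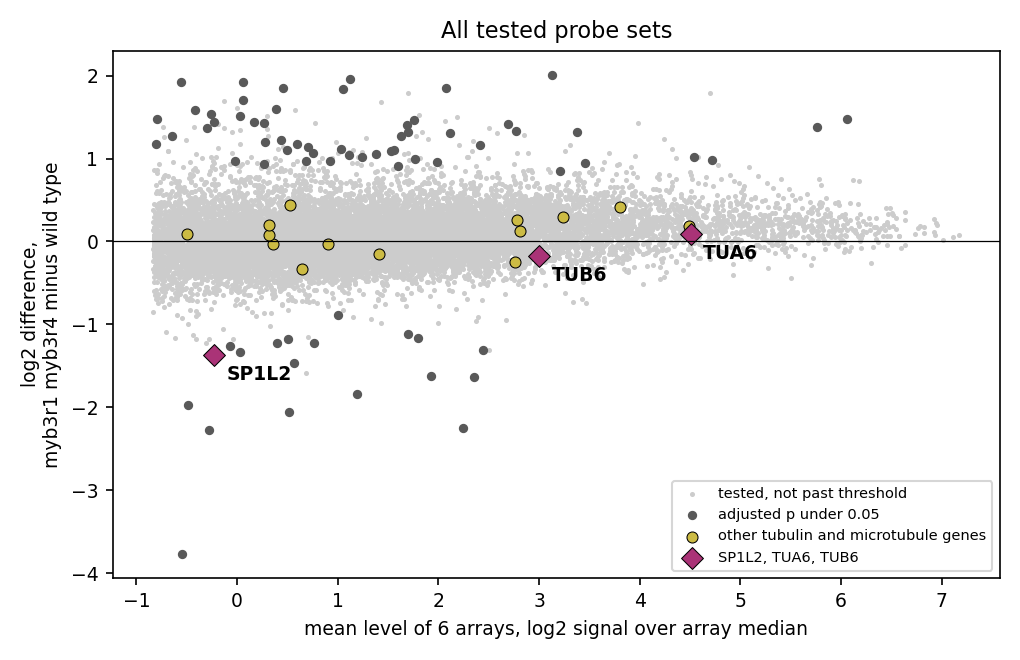
Log2 difference between myb3r1 myb3r4 and wild type (y axis) against the mean level over 6 arrays (x axis, log2 signal over array median) for the 13648 probe sets tested. SP1L2 lies at -1.37 among the dimmer of the tested probe sets, while TUA6, TUB6 and the other tubulin and microtubule genes lie between -0.33 and 0.44.

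The other tested members of the SPIRAL1 family had differences of the opposite sign to that of SP1L2. Of 5 other family genes 4 had a named probe set and 3 were tested, and all 3 had differences above 0, with a median of 0.29 and none past an adjusted p of 0.05 in limma. Over all tested probe sets 58.3% had differences above 0, so this sign is the more common one. SPR1, which is SPIRAL1 itself, had levels of 3.62, 3.5 and 3.68 in wild type and 3.76, 4.28 and 4.0 in the mutant. Its difference was 0.41 (SE 0.16, adjusted p = 0.247 in limma). Its mutant arrays all lay above its wild-type arrays, as they did for 8.15% of tested probe sets. SP1L3 had levels of 3.03, 3.03 and 3.21 in wild type and 3.38, 3.49 and 3.27 in the mutant, again without overlap, and a difference of 0.29 (SE 0.15, adjusted p = 0.341 in limma). SP1L4 overlapped between the genotypes and differed by 0.20 (SE 0.17). Over the other settings tried SPR1 differed by 0.22 to 0.55, SP1L3 by 0.12 to 0.41 and SP1L4 by 0.072 to 0.34. The lowest value came with quantile normalization for SPR1 and SP1L3, and with the median division undone for SP1L4. SP1L5 was too dim to be tested, with a mean of -1.70 ± 0.77 for wild type and of -1.99 ± 0.31 for the mutant (SD, n = 3 each) and set differences of 0.19, -0.80 and -0.25. In the 3 sets SPR1 differed by 0.14, 0.78 and 0.32 and SP1L3 by 0.35, 0.46 and 0.060, where SP1L2 differed by -1.65, -1.13 and -1.33. The difference between SP1L2 and its relatives was not tested, because SP1L2 was chosen on the same contrast.

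None of the other tubulin genes with a named probe set passed the test. Of 13 other alpha- and beta-tubulin genes 7 were read by 6 named probe sets, all tested, 2 lower and 4 higher in the mutant, with a median of 0.15 beside 0.058 for all tested probe sets. This median was -0.033 with quantile normalization. One probe set, that of TUA1, had an unadjusted p under 0.05, where 17.4% of all tested probe sets did. TUA1, an alpha-tubulin gene known for its expression in pollen, had levels of 1.16, 0.19 and -0.43 in wild type and 1.29, 0.63 and 0.31 in the mutant. It differed by 0.44 (SE 0.17, adjusted p = 0.236 in limma), the most of the tubulins, and was higher in the mutant in all 3 sets, as were 26.3% of tested probe sets. TUA3 and TUA5, neighbouring genes in the genome, share 1 probe set, so their transcripts cannot be told apart here. That probe set had levels of 4.77, 4.34 and 4.09 in wild type and 4.90, 4.56 and 4.29 in the mutant. Its differences of 0.13, 0.22 and 0.19 were even between sets, with a mean of 0.18 (SE 0.13) that was -0.061 with quantile normalization.

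The alpha-tubulin levels shared an order of the sets. The array of set 1 was the highest of its genotype in both wild type and mutant for 3 of 3 alpha-tubulin probe sets, where 27.6% of tested probe sets showed this, and for 0 of 5 beta-tubulin probe sets. This order was looked for after the values were seen and is given as a description.

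**Figure D3:**
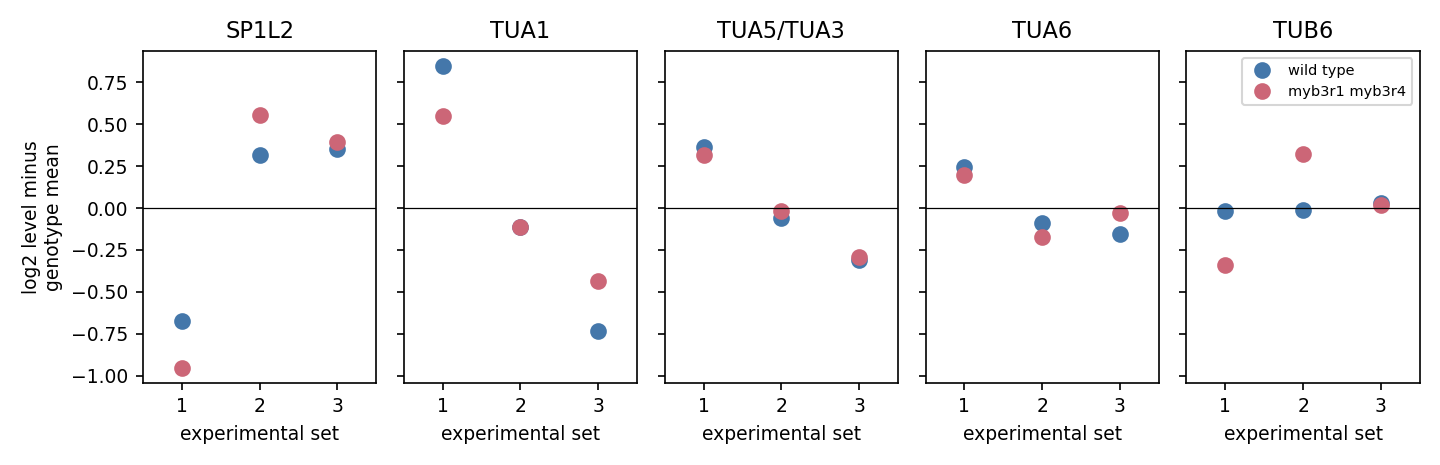
Level of each array minus the mean of its genotype (y axis, log2) by experimental set (x axis) for SP1L2, the 3 alpha-tubulin probe sets and TUB6. In wild type (blue) and mutant (red) alike, set 1 is lowest for SP1L2 and highest for the alpha-tubulins, while for TUB6 the wild-type arrays hardly differ between sets.

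The beta-tubulin genes went both ways. TUB5 had levels of 3.05, 3.07 and 2.55 in wild type and 2.56, 2.95 and 2.41 in the mutant. It was lower in the mutant in all 3 sets, with a difference of -0.25 (SE 0.15, adjusted p = 0.410 in limma), although the genotypes overlapped. TUB7 had levels of 2.56, 2.69 and 2.71 in wild type and 3.0, 2.82 and 2.90 in the mutant, without overlap, and a difference of 0.25 (SE 0.15, adjusted p = 0.389 in limma). TUB1 and TUB9 differed by -0.036 (SE 0.19) and 0.12 (SE 0.16), and both changed side between sets. The TUB9 difference was also below 0 with quantile normalization, with the control covariate and when the median division was undone. The set pattern of TUB6 was shared in part by TUB1, at -0.34, 0.48 and -0.25 in sets 1 to 3: both were lower in the mutant in sets 1 and 3 and higher in set 2.

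Few of the other genes that act on microtubules had a named probe set. No gene was named for 6062 of the 13648 tested probe sets, and whether any of these reads a listed gene was not tested. Of 40 such genes listed, for nucleation, tubulin folding and microtubule binding, 5 had a named probe set, all 5 were tested and none passed. TON1B, which acts in the preprophase band and the order of the cortical array, had levels of 0.94, 0.71 and 0.80 in wild type and 0.69, 0.21 and 0.55 in the mutant. Its genotypes did not overlap, and it differed by -0.33 (SE 0.15, adjusted p = 0.292 in limma). ATMAP65-6, of the family of microtubule-bundling proteins, differed by -0.16 (SE 0.15). The tubulin folding cofactor genes POR and PFI differed by -0.036 (SE 0.17) and 0.081 (SE 0.18), and AT5G17410, of the gamma-tubulin complex that starts new microtubules, by 0.084 (SE 0.21).

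Over the SPIRAL1 family, tubulin and microtubule lists without SP1L2, TUA6 and TUB6, 14 probe sets were tested and 0 passed in limma, 5 lower and 9 higher (64.3% higher, beside 58.3% of all tested probe sets). SPR1 and TUA1, 2 of the 14, had an unadjusted p under 0.05, beside 17.4% of all tested probe sets. In 4 of the 14, SPR1, SP1L3, TUB7 and TON1B, the arrays of the genotypes did not overlap, where 12.7% of all tested probe sets showed this. The differences of the 14 ran from -0.33 to 0.44. The SP1L2 difference of -1.37 lay outside that range, but SP1L2 was chosen on this contrast, so nothing is read from that.

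**Figure D4:**
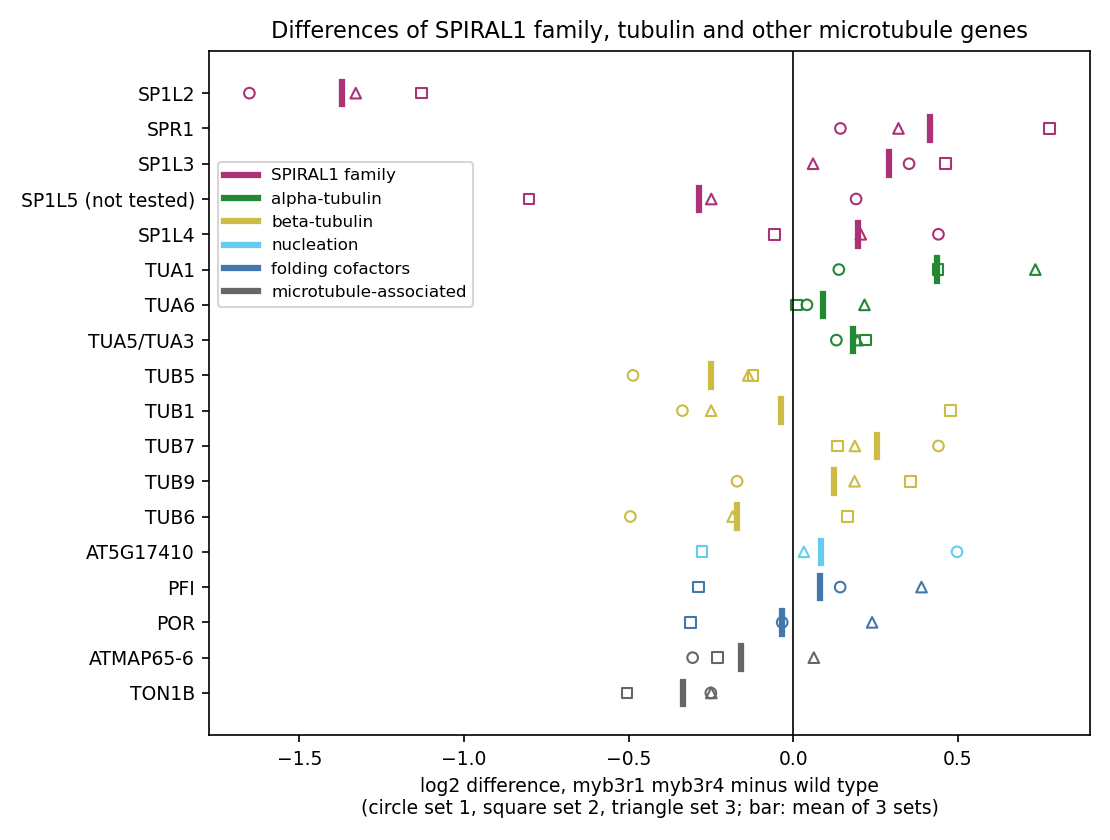
Log2 differences between myb3r1 myb3r4 and wild type (x axis) in each set (circle set 1, square set 2, triangle set 3) and their mean (bar) for the SPIRAL1 family, the tubulins and the other microtubule genes. The 3 SP1L2 points lie between -1.65 and -1.13, left of every other gene, and TUA6 lies near 0 with a sign that changes with quantile normalization and when the median division is undone.

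The genes whose levels followed each member most closely were found by Pearson correlation over the 6 arrays, among 7306 other tested probe sets with 1 named gene. Closest to SP1L2 was AT3G62260 (0.997), followed by AT4G39160, AT1G23790, CPUORF47 and AT5G57970 (0.988 for the last). All 5 were lower in the mutant in all 3 sets and lowest in set 1, as SP1L2 was, but their differences were smaller. AT3G62260 differed by -0.18 and AT4G39160, the most of the 5, by -0.70, and none of the 5 passed in limma. Closest to TUA6 were AT1G27190 (0.995), AT5G15870, AT3G59020, AT5G48960 and AT1G54220, with differences of 0.068 to 0.25. Closest to TUB6 were AT5G66420 (0.993), AT5G48570, APL3, a large-subunit gene of ADP-glucose pyrophosphorylase, BGLU44 and AT3G13650, with differences of -0.33 to -0.092. The arrays that set these values are the same 6 for all genes and include the genotype difference and the set difference, and the highest of 7306 correlations over 6 arrays are high by selection.

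Genes next to SP1L2 in the genome were also compared, by their order in RefSeq's gene table of assembly TAIR10.1 and chosen for position alone. Of the 4 nearest protein-coding genes 2 had a named probe set, both tested. AT1G69210 differed by -0.086 (SE 0.17) and AT1G69250 by -0.043 (SE 0.16), where SP1L2 differed by -1.37. The genotypes overlapped for both of these neighbours.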

How the data were processed

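RNA of 6 whole-seedling samples was measured on Affymetrix arrays, 1 array per sample. Per the submitters' processing notes signals were made with MAS5, in a version not stated there. As deposited, the values are log2 signals with a median of 0 in every column, which shows that each array was divided by its median signal; no label records this step. A single placeholder for a signal of 0 was replaced by that array's smallest step. Every column was used. No sequences of probes, promoters or proteins were used here.

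Gene names came from the platform annotation, with symbols brought up to date from the RefSeq gene table of TAIR10.1. The 64 control probe sets were left out, and the brightest 60% of the others by mean level, 13648, entered limma 3.58.1 (R 4.3.3; lmFit and eBayes with a trend; residual degrees of freedom 2, prior 6.79), with genotype as the effect and the experimental set as a block. P-values were adjusted by Benjamini-Hochberg over all tested probe sets. The labels pair the arrays by set; deviations from the genotype means correlated by 0.67, 0.28 and 0.62 within sets 1 to 3, but the wild-type array of set 2 correlated more with the mutant array of set 3 (0.37) than with its own partner, so the values do not bear out the pairing of set 2. SDs are over 3 arrays and SEs are those of the fit. The script was tested on simulated data. For each gene the brightest probe set was used. Named were the 3 members, every SPIRAL1 family and tubulin gene with a named probe set, the 2 brightest and any passing gene of the other microtubule lists, and 5 most correlated genes per member. Members and lists were chosen with earlier results of these data known. Other settings tried were no block, other filters, other scalings, an offset, no trend, each set left out and, added after seeing the data, a control covariate.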

Additional observations from a re-analysis of the deposited data

How the results depend on the processing

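The SP1L2 difference was below 0 under all 10 alternatives that tested it, from -1.53 to -1.02, the latter with an offset of 50 signal units before the log; among the brightest 40% of probe sets SP1L2 was not tested. Leaving out 1 set at a time gave -1.49 to -1.23. The limma call of SP1L2, on which it was chosen, was lost with no replicate block and with no filter. For TUA6 quantile normalization gave -0.16, undoing the median division gave -0.035, and leaving out 1 set gave 0.026 to 0.13. The TUB6 difference stayed below 0 under all 11 alternatives, but was -0.34 to -0.0093 without 1 set. The cause of these shifts was not tested. None of the other tubulin and microtubule probe sets tested passed under any of the 11 alternatives, though among the brightest 40% only 8 were tested. The number of probe sets that passed, 72, was 1 with no replicate block, 14 with no filter (more probe sets tested), 43 among the brightest 40% (fewer tested), 114 to 1046 without 1 set, and 194 with the control signal as a covariate, which was chosen after seeing the data. With the median division undone the split was 33 lower and 41 higher in place of 19 and 53. The TUB6 difference, about 1 SE as reported, was -0.33 (SE 0.16) with quantile normalization, -0.34 (SE 0.17) without set 2 and -0.36 (SE 0.15) with the control signal as a covariate. Fits without 1 set or with the covariate had fewer residual degrees of freedom than the main fit, so their counts and SEs are less certain. With 3 arrays per genotype the precision is limited, and detection calls were not used here.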
